A study of Bos taurus with 20 samples.

Results

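The genes described here are the mitochondrial carrier family of cattle: the rows of the deposited expression table whose symbol is SLC25A with a number, UCP with a digit or MTCH with a digit, and whose biotype is protein coding. The rule reads names only and no expression value. It gave 43 of the 15542 rows (39 SLC25A genes, 2 UCP genes and 2 MTCH genes), and 15027 of all rows were protein coding. RNA of 20 bovine samples recovered at day 14, when the conceptus elongates in the uterus, had been sequenced. Whole embryos were fresh in 6 samples and vitrified in 2, and trophectoderm (TE, the outer layer that later forms the placenta) had been taken from fresh embryos in 5 samples and from vitrified ones in 7. Vitrification is cryopreservation by cooling so fast that the water turns to glass without ice crystals. No breed, sex, parentage, recipient or cooling protocol is given in the sources used here, and nothing says which embryo gave which TE sample or whether samples of 1 group came from separate dams, so the p-values measure the spread between these samples.

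Mitochondrial carriers are small proteins of the inner mitochondrial membrane that share a repeated fold and exchange solutes between the cytosol and the mitochondrial matrix. They bring in phosphate and ADP and release ATP, they move citrate, malate, glutamate and other substrates of the citric acid cycle, and they supply cofactors, nucleotides, iron and glutathione. Uncoupling proteins belong to the same family, and a few divergent members sit in the outer membrane or in peroxisomes. The trophectoderm of an elongating ruminant conceptus grows fast and exports lipids and signals, and citrate leaving mitochondria through such a carrier feeds lipid synthesis.

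Values are in RPKM, reads per kilobase of genomic span (introns included) and per 1000000 reads of the library. Such levels can be compared between libraries for 1 gene, whereas a difference between genes also reflects how much of the span is intron. Libraries held 6.01 to 14.53 M reads (M, 1000000). The 5 fresh TE libraries stood apart: 33.8 to 40.3% of their reads fell on the listed genes, against 57.5 to 63.9% in the other 15 libraries, and the 13 mitochondrially encoded messenger RNAs took 1.09 to 1.41% of listed-gene reads there against 3.01 to 9.87% elsewhere. Fresh TE libraries 1 and 2, and likewise 3 and 4, were closer to each other than any other pair (chi-square per degree of freedom 1.88 and 1.48, against 11.9 to 22.6 for the other fresh TE pairs), so the comparisons with fresh TE were repeated with these pairs averaged. Trophectoderm markers (GATA2, GATA3, KRT8, KRT18, TFAP2A, TFAP2C, TEAD4 and ELF5) summed to 1353 to 2825 RPKM over the 20 libraries, most of it KRT18 and KRT8. These 2 went opposite ways: KRT8 stood at 141 to 183 RPKM in fresh TE and 688.5 to 976 in vitrified TE. KRT18 stood at 1925 to 2479 and 1078 to 1889 RPKM. Epiblast markers (POU5F1, NANOG, SOX2, PRDM14 and DPPA3) summed to 0.00879 to 0.194 RPKM in fresh TE, 0.517 to 1.74 in vitrified TE and 1.53 to 9.33 in fresh whole embryos. The 2 vitrified whole embryos were unlike each other in this sum, with 0.428 RPKM in embryo 1 and 27.9 in embryo 2. Hypoblast markers (GATA4, GATA6, SOX17, PDGFRA and FOXA2) summed to 0.0506 to 0.474 RPKM in fresh TE and 2.95 to 6.44 in vitrified TE. Fresh embryos held 0.743 to 4.01 RPKM of them and the vitrified embryos at most 3.51. Blood markers (HBA, CD68 and AIF1) summed to 9.478 to 15.52 RPKM in fresh TE and 2.986 to 6.438 in the other 15 libraries. Most of the fresh TE sum was AIF1 (8.825 to 15.31 RPKM, against 0.3412 to 1.104 in vitrified TE). CD68 went the other way (0.2165 to 0.5628 and 1.637 to 4.498 RPKM), as did HBA (0 to 0.2168 and 0.9265 to 1.88). The part that these differences in read composition and in other cell types play in the values below was not tested, and in bulk RNA fewer cells of a type and less RNA per cell cannot be told apart.

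Of the 43 carrier genes, 35 had at least 10 reads in at least 2 libraries and were tested. The other 8 (SLC25A21, SLC25A23, SLC25A27, SLC25A31, SLC25A32, SLC25A46, SLC25A48 and UCP1) were not. Most of the family was expressed at a low level on this scale, with 31 of the 43 genes averaging under 1 RPKM over the 20 libraries. In every library, 4 genes took most of the family's reads: the phosphate carrier SLC25A3 and the ADP/ATP carriers SLC25A4, SLC25A5 and SLC25A6 held 66.2 to 68.7% of them in fresh TE, 63.0 to 67.8% in vitrified TE, 67.1 to 70.1% in fresh embryos and 66.5 and 67.5% in the vitrified embryos. The family as a whole took 0.185 to 0.234% of listed-gene reads in fresh TE, 0.269 to 0.320% in vitrified TE, 0.25 to 0.31% in fresh embryos, and 0.309 and 0.365% in the 2 vitrified embryos.

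The first comparison asked how TE of vitrified embryos differed from TE of fresh embryos. At an adjusted p under 0.05 (limma over the 10599 genes tested, Benjamini-Hochberg), 26 of the 35 carrier genes were higher in vitrified TE and 2 were lower, or 74.3% and 5.71%. Among all genes tested, 69.0% were higher and 6.66% lower, so the family moved about as the table as a whole did. The median ratio of group means was 2.53 for the tested carrier genes and 2.48 for all genes tested. All vitrified TE libraries lay above all fresh ones for 62.9% of the tested carrier genes and 54.6% of all genes tested. How many of these calls stand depends on how libraries are scaled. When each library was scaled to its listed-gene reads, 19 were higher and 5 lower (all genes 49.4% and 15.7%). With median-ratio scaling the carrier counts were 14 and 12 (all genes 35.2% and 27.4%), and with quantile normalization 11 and 12 (all genes 26.2% and 38.7%). The median log2 change of all genes went from 0.18 in the main fit to 0.10, 0.01 and -0.01 under these scalings. Called higher under all 4 scalings were 11 genes (SLC25A1, SLC25A6, SLC25A17, SLC25A22, SLC25A28, SLC25A29, SLC25A35, SLC25A37, SLC25A39, MTCH2 and UCP2), and called lower under all 4 were SLC25A14 and SLC25A38. With the near-identical fresh TE pairs averaged, 22 were higher and 2 lower (all genes 63.2% and 5.81%).

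In whole embryos the same contrast gave 13 carrier genes higher in the vitrified embryos and 0 lower (37.1% and 0%), against 26.9% and 3.94% of all genes tested. At an unadjusted p under 0.05 there were 14 carrier genes in either direction, beside 4397 of the 10599 genes tested. Under the other scalings the higher count was 9 (listed-gene), 3 (median-ratio) and 4 (quantile), again with 0 lower, while all genes went to 21.0% higher and 4.31% lower, 10.6% and 7.0%, and 8.68% and 6.14%. SLC25A11, SLC25A35 and SLC25A39 were higher under all 4. Vitrified embryos lay above all fresh ones for 28.6% of the tested carrier genes and 29.4% of all genes tested. Only 2 vitrified embryos carry this contrast. Without vitrified embryo 2, the median log2 change of the carrier genes was 0.06, against 0.11 in the main fit (all genes 0.04 against 0.06). Without vitrified embryo 1 it was 0.09 (all genes 0.07). A fit of only the 2 groups compared gave 7 higher and 0 lower, beside 18.1% and 2.23% of all genes.

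Fresh whole embryos were also compared with fresh TE. Here 25 carrier genes were higher in the whole embryo and 4 lower (71.4% and 11.4%), against 60.0% and 5.97% of all genes tested. This contrast and the vitrification contrast in TE share the 5 fresh TE libraries. All fresh embryos lay above all fresh TE libraries for 51.4% of the tested carrier genes and 48.4% of all genes tested. Listed-gene scaling gave 16 higher and 8 lower, median-ratio scaling 11 and 9, and quantile normalization 7 and 12, while all genes went to 39.6% and 16.0%, 30.0% and 25.0%, and 23.6% and 34.7%. Higher under all 4 scalings were SLC25A17, SLC25A28, SLC25A33, SLC25A37, SLC25A39, MTCH2 and UCP2. Lower under all 4 scalings were, among others, MTCH1, SLC25A38 and SLC25A44. Between vitrified whole embryos and vitrified TE, 5 carrier genes were higher in the embryos (MTCH2, SLC25A3, SLC25A17, SLC25A33 and SLC25A39) and 1 lower (SLC25A22), against 15.3% and 3.59% of all genes. None of these 6 was called under all 4 scalings. The higher count was 1, 0 and 0 under the other scalings (all genes 8.48% higher and 3.32% lower, 3.24% and 2.66%, and 2.59% and 2.07%). Without vitrified embryo 2 the median log2 difference of the carrier genes was 0, against 0.03 in the main fit (all genes 0.01 against 0.03). Leaving out vitrified TE 4, 5 or 7 each left 2 higher, beside 11.8%, 12.2% and 11.7% of all genes.

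The last contrast asked whether the vitrification difference in whole embryos was unlike that in TE. The log2 change in whole embryos minus that in TE was below 0 for 11 carrier genes and above 0 for 1 (SLC25A38, with -0.23 in TE and 0.26 in whole embryos, the second not called), against 28.4% and 3.98% of all genes tested. Listed-gene scaling gave 4 lower and 4 higher, median-ratio scaling 4 and 6, and quantile normalization 5 and 9 (all genes 16.5% and 9.21%, 13.2% and 14.0%, and 11.3% and 19.5%). SLC25A1, SLC25A29 and UCP2 were lower and SLC25A38 was higher under all 4 scalings.

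**Figure D1:**
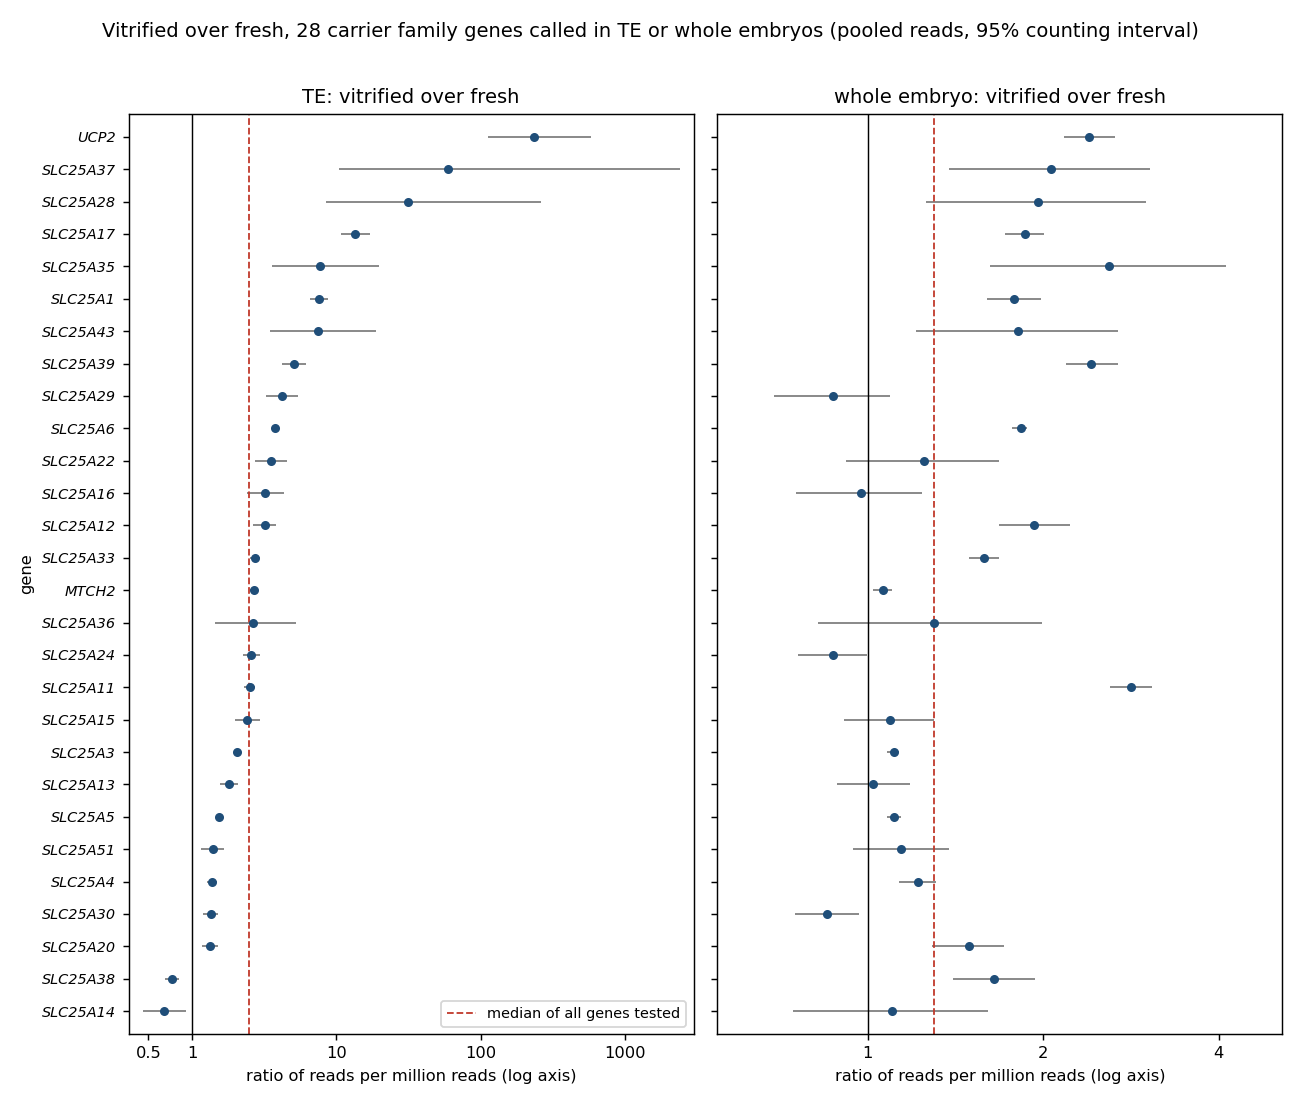
Ratio of pooled reads relative to library totals, vitrified over fresh, for the 28 carrier genes called in either contrast, in TE (left) and whole embryos (right), on log axes with the 95% counting interval. The dashed line is the median ratio of group means of all genes tested (2.48 in TE, 1.30 in whole embryos); UCP2 leads in TE at 233, and SLC25A14 is lowest there at 0.643.

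Energy carriers form the most abundant class. SLC25A3, on chromosome 5 (63086353 to 63092547 in UMD3.1), imports the phosphate used to make ATP. It stood at 35.9, 30.4, 32.3, 35 and 34.8 RPKM in the 5 fresh TE libraries and at 59.2, 70.0 and 76.5 (lowest, median and highest) in vitrified TE, at 61.5, 82.7 and 98.7 in fresh embryos, and at 93.9 and 91.7 in the vitrified embryos. All fresh TE values lay below all others. The log2 difference between vitrified and fresh TE was 1.0 ± 0.11 (SE, adjusted p = 1.09e-07 in limma) and was not called with median-ratio scaling (-0.10) or quantile normalization (0.19, adjusted p = 0.0874). In whole embryos it was 0.19 ± 0.15 (adjusted p = 0.347).

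The ADP/ATP carriers exchange cytosolic ADP for matrix ATP, and cattle like other mammals have several: SLC25A4, the form typical of heart and muscle, SLC25A5, typical of dividing cells, and SLC25A6, expressed in most tissues. They are similar in sequence, and how reads matching more than 1 of them were counted is not given in the sources used here, so their separate levels are uncertain to that extent. SLC25A5, on chromosome X (3696978 to 3701262), stood at 46.3, 45.0, 43.9, 43.1 and 48.8 RPKM in fresh TE, at 48.3, 65.2 and 102 in vitrified TE, at 78.0, 82.6 and 93.0 in fresh embryos, and at 83.1 and 103 in vitrified embryos. Vitrified TE was 1.55-fold higher on average (log2 0.59 ± 0.14, adjusted p = 0.000998), with the lowest vitrified library inside the fresh range, and median-ratio scaling turned the change to -0.51 (adjusted p = 0.0029). SLC25A6, annotated on an unplaced scaffold (1867 to 6353), stood at 27.9, 25.2, 20.7, 21.6 and 14.0 RPKM in fresh TE, at 70.5, 77.7 and 98.1 in vitrified TE, at 37.3, 40.9 and 57.3 in fresh embryos, and at 57.0 and 114 in the vitrified embryos. No vitrified TE library overlapped the fresh ones, and the difference was 3.73-fold (log2 1.88 ± 0.18, adjusted p = 2.12e-08). In whole embryos the log2 difference was 0.83 ± 0.25 (adjusted p = 0.0164). Without vitrified embryo 2 it was 0.33 (adjusted p = 0.499). SLC25A4, on chromosome 27 (14546020 to 14550037), stood at 5.92, 5.55, 8.27, 7.83 and 5.95 RPKM in fresh TE, at 6.91, 10.6 and 11.1 in vitrified TE, at 6.54, 10.1 and 13.7 in fresh embryos, and at 12.8 and 14.0 in vitrified embryos. Its groups overlapped in TE (log2 0.43 ± 0.17, adjusted p = 0.0266). The call was lost with the near-identical libraries averaged (adjusted p = 0.0561) and without any one of fresh TE 1, 2 or 5 or vitrified TE 1 or 6 (adjusted p 0.0501 to 0.0705), and median-ratio scaling turned the change to -0.57.

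Because a ratio of 2 genes inside a library does not depend on the scaling of that library, the ADP/ATP carriers were also compared as ratios. For 1 RPKM of SLC25A6 there was 1.66 to 3.49 RPKM of SLC25A5 in the fresh TE libraries and 0.536 to 1.34 in the vitrified ones, and the groups did not overlap. The log2 ratio was lower by 1.33 in vitrified TE (exact two-sided permutation p = 0.00126, the smallest possible with 7 against 5, adjusted p = 0.0135 over 32 tests of 8 pairs in 4 comparisons). SLC25A4 over SLC25A6 fell as well, from 0.215 to 0.430 in fresh TE to 0.0755 to 0.158 in vitrified TE (log2 difference -1.45, exact permutation p = 0.00126, adjusted p = 0.0135). The ratio of SLC25A4 to SLC25A5 overlapped broadly between the groups (medians 0.129 and 0.130, exact permutation p = 0.449). Both changed ratios therefore involve SLC25A6. With the near-identical fresh TE libraries averaged, which leaves 7 against 3 samples, the log2 differences were -1.45 and -1.53. The adjusted p was then 0.0667 for both, so neither call was kept. With group medians in place of means, none of the 5 ratios that passed in all comparisons kept an adjusted p under 0.05 (0.0831 for each). In fresh embryos SLC25A5 over SLC25A6 was 1.36 to 2.44, and in the vitrified embryos 1.46 and 0.898 (log2 difference -0.72, exact permutation p = 0.0714, where 0.0357 is the smallest possible).

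**Figure D2:**
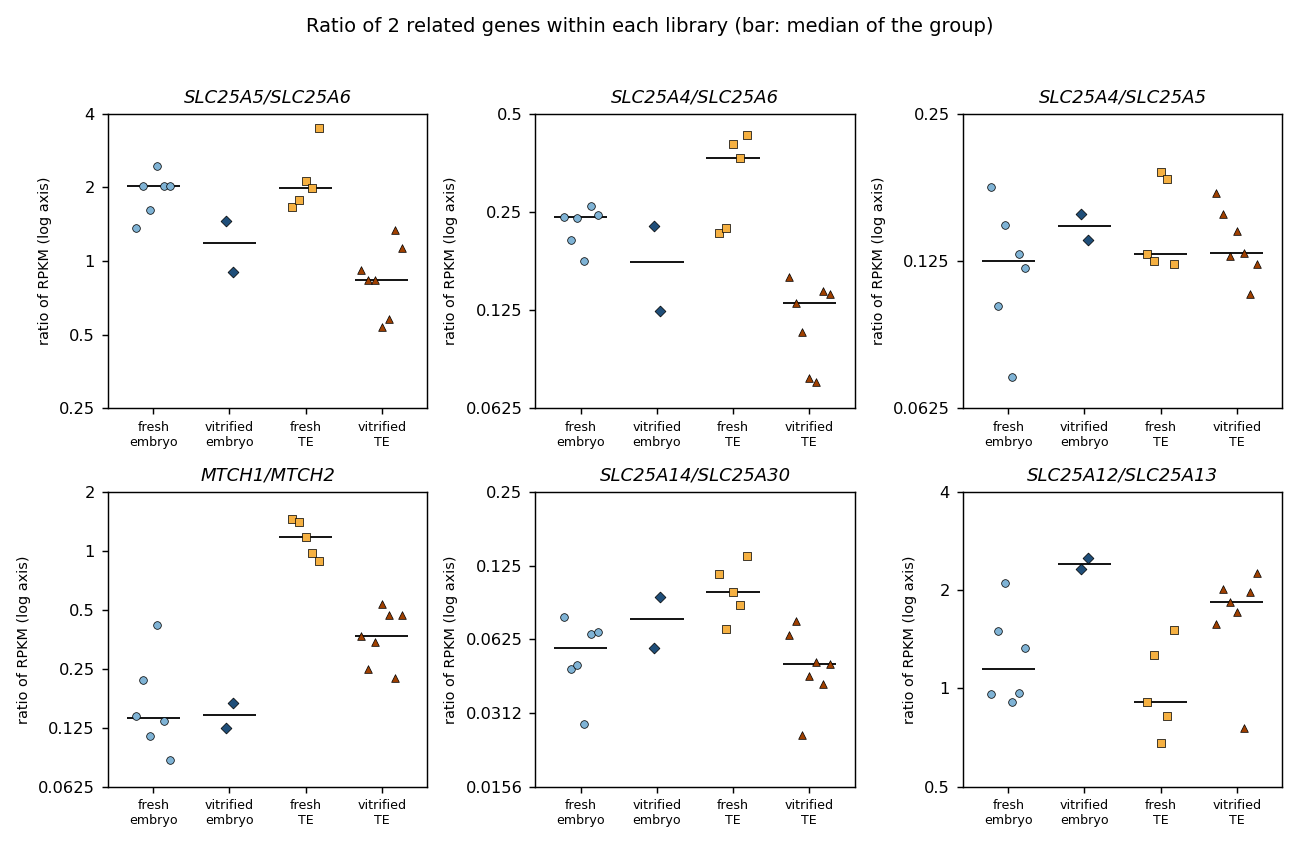
Ratios of RPKM between related carrier genes in each of the 20 libraries (log axes, 1 point a library, bar at the group median). SLC25A5/SLC25A6, SLC25A4/SLC25A6 and MTCH1/MTCH2 show no overlap between fresh and vitrified TE, whereas SLC25A4/SLC25A5 has medians of 0.129 and 0.130.

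SLC25A31, the ADP/ATP carrier known from germ cells, was not tested. Its 28 reads over all libraries were spread unevenly: 18 came from vitrified embryo 2, 0 from vitrified embryo 1, 0 from all 7 vitrified TE libraries, 2 from fresh TE and 8 from fresh embryos 1, 2 and 3. Vitrified embryo 2 is also the library with the largest epiblast marker sum, and a link with these reads was not tested. The ATP-Mg/phosphate carriers SLC25A23, SLC25A24 and SLC25A25 adjust the adenine nucleotide pool of the matrix. SLC25A24 was higher in vitrified than fresh TE (0.345 ± 0.046 against 0.136 ± 0.064 RPKM, SD, n = 7 and 5, log2 0.24 ± 0.04, adjusted p = 6.11e-06). Its ratio of means was 2.53, beside a median of 2.48 over all genes tested, and it was not called with median-ratio scaling or quantile normalization. SLC25A25 ranged from 0.0809 to 0.976 RPKM within vitrified TE and passed the test in none of the 5 contrasts, although both vitrified embryos (0.161 and 0.281 RPKM) lay below all 6 fresh ones (0.324 to 1.11).

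Among carriers of di- and tricarboxylates, SLC25A1 exports citrate from the matrix. The gene lies on chromosome 17 (74633475 to 74635952). Its level was 3.40, 2.22, 1.70, 2.0 and 2.53 RPKM in fresh TE, 14.0, 17.2 and 22.6 in vitrified TE, 3.38, 6.27 and 8.83 in fresh embryos, and 11.5 and 13.1 in vitrified embryos. Vitrified samples lay above fresh ones without overlap in both tissues. The ratio of means was 7.43 in TE (log2 2.47 ± 0.18, adjusted p = 5.35e-10) and 1.88 in whole embryos (log2 0.87 ± 0.25, adjusted p = 0.012). The whole-embryo call was lost with median-ratio scaling (0.55, adjusted p = 0.129) and without vitrified embryo 2 (0.78, adjusted p = 0.136). Fresh embryos were above fresh TE (log2 1.13 ± 0.18, adjusted p = 2.44e-05), whereas vitrified embryos against vitrified TE gave -0.47 ± 0.24 (adjusted p = 0.175). The difference between the vitrification changes was -1.60 ± 0.30 on the log2 scale (adjusted p = 0.000613).

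SLC25A11, which exchanges 2-oxoglutarate for malate in the malate-aspartate shuttle, was higher after vitrification in both tissues. On chromosome 19 (27089299 to 27092026), it stood at 4.99, 6.65, 6.82, 7.10 and 5.48 RPKM in fresh TE, at 14.4, 14.7 and 18.7 in vitrified TE, at 5.18, 7.61 and 9.64 in fresh embryos, and at 15.6 and 26.0 in vitrified embryos. Neither tissue showed an overlap of fresh and vitrified libraries. The log2 difference was 1.21 ± 0.14 in TE (adjusted p = 2.17e-07) and 1.33 ± 0.19 in whole embryos (adjusted p = 9.6e-05), and the contrast of both was 0.12 ± 0.23 (adjusted p = 0.739). In TE the call was lost with median-ratio scaling (0.21, adjusted p = 0.165) and quantile normalization (0.25, adjusted p = 0.122). In whole embryos it stayed under all 4 scalings and without either vitrified embryo. SLC25A21, a carrier of oxoadipate, had 37 reads over all libraries and was not tested.

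**Figure D3:**
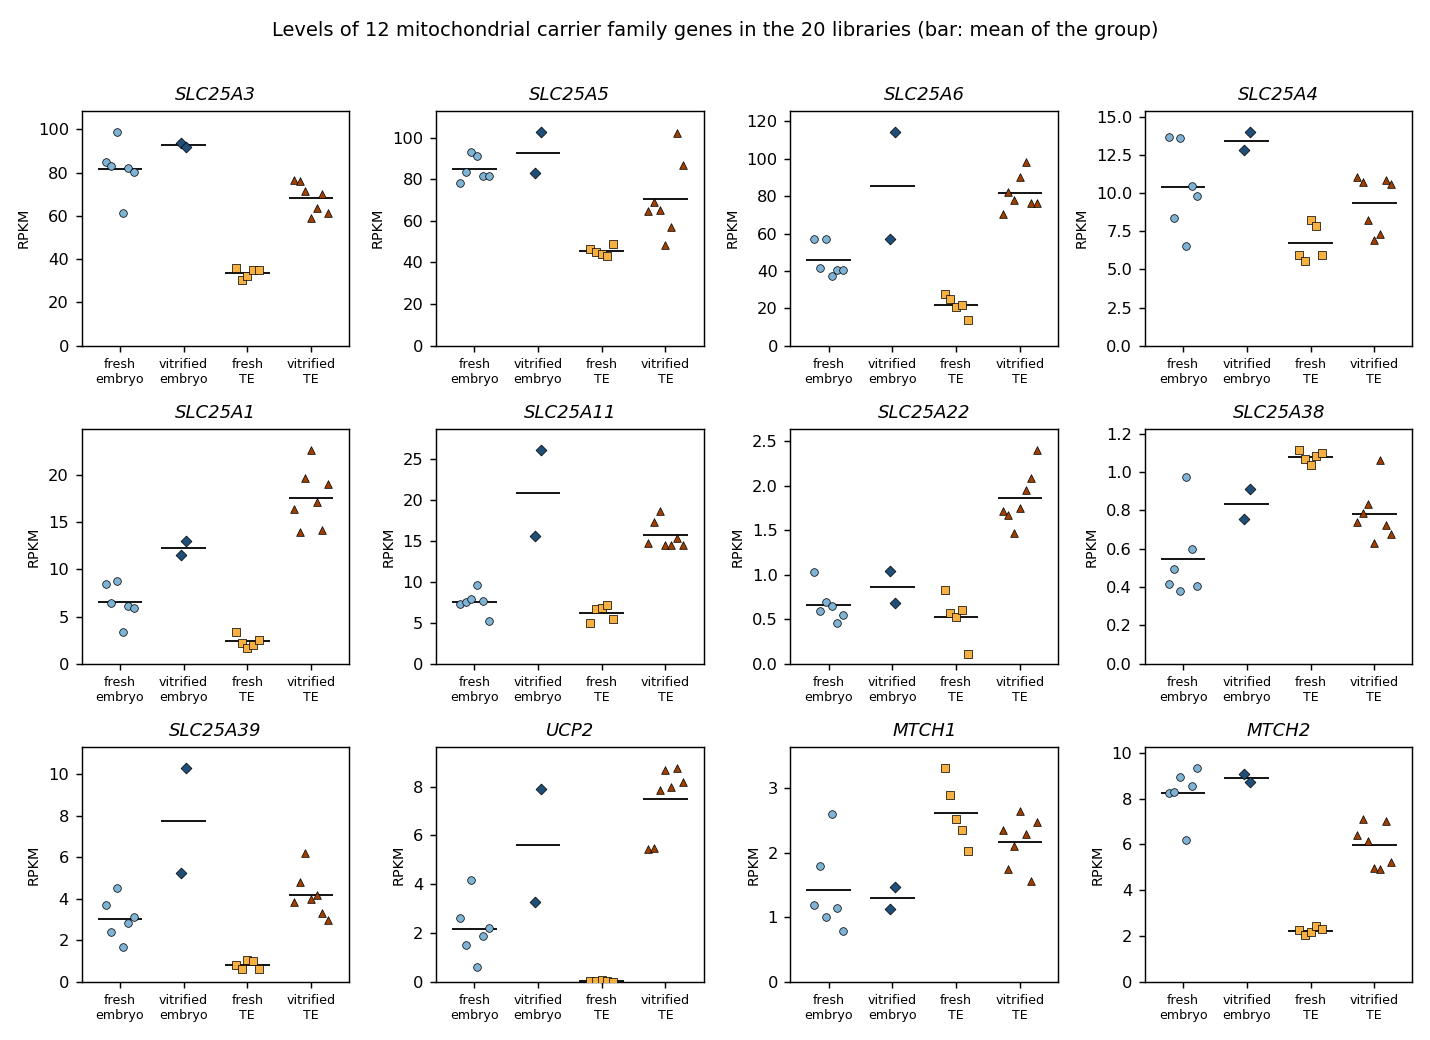
RPKM of 12 carrier genes in each library (linear axes from 0), with 1 symbol a library and a bar at the group mean. Fresh TE is lowest without overlap for SLC25A3, SLC25A6, SLC25A39, UCP2 and MTCH2, and highest for SLC25A38 except for 1 vitrified TE library at 1.06. Of all genes tested, 54.6% lay wholly higher in vitrified than in fresh TE and 48.4% in fresh embryos than in fresh TE.

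Amino acid and acylcarnitine carriers numbered 8, all tested. In TE, 6 were higher after vitrification (SLC25A12, SLC25A13, SLC25A15, SLC25A20, SLC25A22 and SLC25A29), 1 was lower (SLC25A38) and SLC25A44 was not called, beside 69.0% and 6.66% of all genes. SLC25A22 and SLC25A29 stayed higher under all 4 scalings, and SLC25A20 turned lower with median-ratio scaling and quantile normalization. SLC25A22, which brings glutamate into the matrix, lies on chromosome 29 (50835593 to 50839686). It stood at 0.831, 0.569, 0.529, 0.604 and 0.110 RPKM in fresh TE and at 1.46, 1.75 and 2.40 in vitrified TE, with 0.458, 0.618 and 1.02 in fresh embryos and 1.04 and 0.682 in vitrified embryos. Vitrified TE therefore stood above every other library. The log2 difference was 0.92 ± 0.11 in TE (adjusted p = 4.77e-07) and 0.17 ± 0.15 in whole embryos (adjusted p = 0.437). SLC25A22 was also the carrier gene called lower in vitrified embryos than in vitrified TE (log2 -0.62 ± 0.15, adjusted p = 0.0112), a call that rested on vitrified embryo 2 (-0.48, adjusted p = 0.176 without it). SLC25A29, a carrier of arginine, lysine and ornithine, was likewise highest on average in vitrified TE, at 0.662 ± 0.13 RPKM (SD, n = 7), 0.158 ± 0.048 in fresh TE (n = 5), 0.462 ± 0.14 in fresh embryos (n = 6), and 0.412 and 0.413 in the vitrified embryos. Its difference of vitrification changes was -0.56 ± 0.11 (adjusted p = 0.000768).

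The aspartate/glutamate carriers SLC25A12 (aralar) and SLC25A13 (citrin) complete the malate-aspartate shuttle. SLC25A13, the amino acid carrier with the most reads, with a span of 184.3 kb on chromosome 4 (13345306 to 13529584), stood at 0.0474, 0.0307, 0.0518, 0.0462 and 0.0333 RPKM in fresh TE and 0.0608, 0.0772 and 0.0907 in vitrified TE. In fresh embryos it stood at 0.0607, 0.0745 and 0.0854 and in vitrified embryos at 0.0689 and 0.0818. Only fresh TE was apart (log2 0.05 ± 0.01, adjusted p = 0.000142, on a scale where 1 is added to each RPKM and changes of such low genes are compressed), and quantile normalization turned the change to -0.06. SLC25A12 reached 0.160 and 0.205 RPKM in the vitrified embryos against 0.0684 to 0.140 in the fresh ones (log2 0.11 ± 0.03, adjusted p = 0.00869). The ratio of SLC25A12 to SLC25A13 was 2.32 and 2.5 in vitrified embryos and 0.908 to 2.10 in fresh ones, with no overlap (log2 difference 0.97, exact permutation p = 0.0357, the smallest possible, adjusted p = 0.135).

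SLC25A38 imports glycine for the first step of heme synthesis and, with SLC25A14, was called lower in vitrified TE. Located on chromosome 22 (12689757 to 12704735), it stood at 1.11, 1.07, 1.04, 1.08 and 1.1 RPKM in fresh TE, at 0.629, 0.741 and 1.06 in vitrified TE, at 0.378, 0.456 and 0.976 in fresh embryos, and at 0.752 and 0.909 in vitrified embryos. The fresh TE libraries were high and tight, and 1 of the 7 vitrified TE libraries (number 5) reached their range. The log2 difference was -0.23 ± 0.08 in TE (adjusted p = 0.0125) and 0.26 ± 0.11 in whole embryos (adjusted p = 0.0806). Without fresh embryo 4 the whole-embryo difference was 0.33 (adjusted p = 0.00545). The difference between both was 0.48 ± 0.13 (adjusted p = 0.00938), and without vitrified embryo 2 it was 0.42 (adjusted p = 0.0634). SLC25A44, a carrier of branched-chain amino acids, was lower in fresh embryos than in fresh TE (log2 -0.18 ± 0.07, adjusted p = 0.0357), a call lost without any one of fresh embryos 1, 2, 3, 5 or 6 or of fresh TE 3 or 4 (adjusted p 0.0503 to 0.104).

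Cofactor and nucleotide carriers were 8, of which 7 were tested. SLC25A33, which imports pyrimidine nucleotides, had the most reads. It lies on chromosome 16 (44801770 to 44831904) and stood at 0.903, 0.773, 0.702, 0.629 and 0.665 RPKM in fresh TE, at 1.51, 2.15 and 2.41 in vitrified TE, at 1.83, 1.96 and 2.09 in fresh embryos, and at 2.68 and 3.46 in vitrified embryos. Fresh TE was lowest and the vitrified embryos highest, each without overlap. The log2 difference was 0.78 ± 0.09 in TE (adjusted p = 1.97e-07) and 0.45 ± 0.12 in whole embryos (adjusted p = 0.0084). The whole-embryo call was lost without vitrified embryo 2. Neither difference was called with median-ratio scaling or quantile normalization. SLC25A17, which resides in peroxisomes and carries coenzyme A, FAD and NAD, had 83 reads in the 5 fresh TE libraries together and 2011 in the 7 vitrified ones. Relative to library totals the ratio was 13.5 (95% counting interval 10.8 to 17.0). Its levels were 0.0329 to 0.110 RPKM in fresh TE, 0.474 to 1.17 in vitrified TE, 0.382 to 1.13 in fresh embryos, and 1.44 and 1.29 in vitrified embryos. SLC25A26, SLC25A36 and SLC25A51 carry S-adenosylmethionine, pyrimidine nucleotides and NAD. Their log2 changes in the main fit were at most 0.17, on a scale that compresses changes of such low genes. Relative to library totals, vitrified over fresh TE was 1.12, 2.66 (95% counting interval 1.45 to 5.27) and 1.39, beside a median of 2.48 over all genes. The main fit called SLC25A36 and SLC25A51 higher there (adjusted p = 0.00797 and 0.0253 in limma), and neither stayed higher under the other scalings. In fresh embryos against fresh TE the ratios were 1.43, 3.48 and 1.55, and the main fit called all of them higher.

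Iron and glutathione carriers were 4, all tested, and all 4 were higher in fresh embryos than in fresh TE, under the main, listed-gene and median-ratio scalings, beside 60.0%, 39.6% and 30.0% of all genes. With quantile normalization SLC25A40 was not called. SLC25A28, SLC25A37 and SLC25A40 had 2, 1 and 5 reads in all fresh TE libraries together. They passed the read filter only through other groups, so a call in the other direction was hardly possible. The shared direction therefore says nothing about the class. SLC25A39 imports glutathione. On chromosome 19 (44752354 to 44756897), it stood at 0.820, 0.623, 1.06, 0.998 and 0.592 RPKM in fresh TE, at 2.95, 4.01 and 6.23 in vitrified TE, at 1.66, 2.97 and 4.53 in fresh embryos, and at 5.22 and 10.3 in vitrified embryos. Vitrified samples lay above fresh ones in both tissues. The log2 difference was 1.5 ± 0.18 in TE (adjusted p = 4.73e-07) and 1.09 ± 0.25 in whole embryos (adjusted p = 0.00306, and 0.168 without vitrified embryo 2). The mitoferrins, which import iron for heme and iron-sulfur clusters, were nearly without reads in fresh TE. SLC25A37 (mitoferrin 1) had 1 read in the 5 fresh TE libraries together and 107 in the 7 vitrified ones, a ratio of 59.6 relative to library totals (95% counting interval 10.5 to 2380). SLC25A28 (mitoferrin 2) had 2 reads against 112, a ratio of 31.2 (8.44 to 261). Fresh embryos had 73 and 64 reads of these genes and the vitrified embryos 42 and 35. On the log2 scale with 1 added the TE changes were 0.05 ± 0.01 (adjusted p = 0.000181) and 0.23 ± 0.03 (adjusted p = 5.52e-07).

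UCP2 showed the largest vitrification difference of the family in TE. The uncoupling proteins are anion carriers named after UCP1, which lets protons bypass ATP synthase in brown fat. UCP2 is found in many tissues, and what it transports there is debated. The gene lies on chromosome 15 (54196170 to 54202633). In fresh TE it stood at 0.0250, 0.0258, 0.0788, 0.0213 and 0 RPKM, which are 1, 1, 4, 1 and 0 reads. In vitrified TE it stood at 5.44, 8.0 and 8.75 RPKM, or 2922 reads over 7 libraries, and the ratio relative to library totals was 233 (95% counting interval 113 to 579). Fresh embryos ranged from 0.610 to 4.18 with a median of 2.06, and the vitrified embryos had 3.29 and 7.91. Fresh TE lay below every other library. The log2 difference was 3.02 ± 0.22 in TE (adjusted p = 6.86e-10). In whole embryos it was 1.05 ± 0.31 (adjusted p = 0.0141), and without vitrified embryo 2 it was 0.52 (adjusted p = 0.4). The contrast of these changes was -1.97 ± 0.38 (adjusted p = 0.000701). Vitrified embryos and vitrified TE differed by -0.44 ± 0.30 (adjusted p = 0.32).

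UCP1 itself had 0 reads in the 5 fresh TE libraries, which allows up to 3 reads, and 10 in the 7 vitrified TE libraries. With 3 reads over the fresh group taken as the floor, the ratio relative to library totals was 1.86. That value takes the 10 reads as exact, and the lower end of the 95% counting interval lay below it. UCP1 was not tested. The related SLC25A14 and SLC25A30 went apart. SLC25A14, on chromosome X (14203647 to 14243769), stood at 0.0484, 0.0290, 0.0540, 0.0411 and 0.0633 RPKM in fresh TE and at 0.0190, 0.0307 and 0.0412 in vitrified TE, with 0.0328, 0.0469 and 0.0583 in fresh embryos and 0.0473 and 0.0584 in vitrified embryos. It was lower in vitrified TE, with overlap (log2 -0.02 ± 0.01, adjusted p = 0.0148, 75 reads against 65 in fresh TE, ratio 0.643 relative to library totals with a 95% counting interval of 0.455 to 0.911). Without fresh TE 5 the adjusted p was 0.0577. SLC25A30, on chromosome 12 (15590375 to 15614504), stood at 0.436, 0.449, 0.565, 0.495 and 0.471 RPKM in fresh TE, at 0.498, 0.632 and 0.806 in vitrified TE, at 0.729, 0.853 and 1.23 in fresh embryos, and at 0.841 and 0.638 in vitrified embryos. It was higher in vitrified TE in the main fit (log2 0.16 ± 0.07, adjusted p = 0.0351) and lower with median-ratio scaling (-0.27). The call was lost with near-identical libraries averaged (adjusted p = 0.0874) and in 7 of 12 leave-outs (adjusted p 0.0521 to 0.0728). The ratio of SLC25A14 to SLC25A30 was lower in vitrified TE by 1.04 on the log2 scale (exact permutation p = 0.00379, adjusted p = 0.0277), with overlap. The adjusted p was 0.0667 with near-identical libraries averaged, and 7 of the 12 leave-outs of a TE library brought it above 0.05 (0.0554 or 0.0776).

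The outer membrane members differed in opposite directions between fresh embryos and fresh TE. MTCH2 inserts helical proteins into the outer membrane and takes part in apoptosis, and MTCH1 is its paralog. MTCH2, on chromosome 15 (78613666 to 78633634), stood at 2.27, 2.05, 2.16, 2.42 and 2.29 RPKM in fresh TE, at 4.92, 6.13 and 7.09 in vitrified TE, at 6.20, 8.43 and 9.32 in fresh embryos, and at 9.10 and 8.73 in vitrified embryos. MTCH1, on chromosome 23 (10854192 to 10873802), stood at 3.30, 2.90, 2.53, 2.34 and 2.02 RPKM in fresh TE, at 1.56, 2.29 and 2.65 in vitrified TE, at 0.790, 1.17 and 2.59 in fresh embryos, and at 1.12 and 1.46 in vitrified embryos. MTCH2 was lowest in fresh TE without overlap, where MTCH1 was highest on average. MTCH2 rose in vitrified TE (log2 1.09 ± 0.10, adjusted p = 2.07e-08), whereas MTCH1 gave -0.19 ± 0.15 (adjusted p = 0.239) and was called lower under the other 3 scalings. Fresh embryos against fresh TE gave 1.51 ± 0.11 for MTCH2 (adjusted p = 1.47e-09) and -0.61 ± 0.15 for MTCH1 (adjusted p = 0.00155). The ratio of MTCH1 to MTCH2 was 0.884 to 1.46 in fresh TE, 0.223 to 0.536 in vitrified TE, 0.0852 to 0.419 in fresh embryos, and 0.168 and 0.124 in vitrified embryos. Fresh TE lay above all other libraries. The log2 ratio differed by -1.67 between vitrified and fresh TE (exact permutation p = 0.00126, adjusted p = 0.0135) and by -2.85 between fresh embryos and fresh TE (exact permutation p = 0.00433, adjusted p = 0.0277). Averaging the near-identical libraries gave -1.61 (adjusted p = 0.0667) and -2.79 (adjusted p = 0.0762), and leaving out any of fresh embryos 2 to 6 brought the second adjusted p to 0.0508. Vitrified embryos lay below vitrified TE without overlap (log2 difference -1.33, exact permutation p = 0.0278, the smallest possible, adjusted p = 0.127).

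Members of unsettled substrate were few and low. SLC25A43, close to SLC25A5 on chromosome X (3646867 to 3687086), had the most reads among them and stood at 0.00403, 0, 0, 0.0171 and 0.00372 RPKM in fresh TE, at 0.0187, 0.0319 and 0.0657 in vitrified TE, at 0.0123, 0.0292 and 0.0479 in fresh embryos, and at 0.0590 and 0.0555 in vitrified embryos. These are 7 reads in fresh TE against 93 in vitrified TE, a ratio of 7.41 relative to library totals (3.46 to 18.9). SLC25A35 had 7 against 97 reads (ratio 7.72, 3.61 to 19.7) and was higher in vitrified samples of both tissues without overlap, by log2 0.41 ± 0.04 in TE (adjusted p = 1.86e-08) and 0.34 ± 0.05 in whole embryos (adjusted p = 0.000189). SLC25A34 passed the test in none of the contrasts in the main fit.

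The 6 fresh whole embryos were not alike in these genes. Of the 25 carrier genes that averaged at least 50 reads over them, fresh embryo 4, the library with the lowest depth of this group (6.09 M reads), was lowest for 11 and highest for 6, or 44.0% and 24.0%. Over all 6307 genes with that many reads the same embryo was lowest for 33.1% and highest for 26.9%. UCP2 was lowest there at 0.610 RPKM (the others 1.5 to 4.18), SLC25A1 at 3.38 (5.94 to 8.83) and MTCH2 at 6.20 (8.24 to 9.32). The highest there were MTCH1 at 2.59 RPKM (0.790 to 1.80), SLC25A38 at 0.976 (0.378 to 0.597), SLC25A44 at 0.760 (0.209 to 0.441) and SLC25A25 at 1.11 (0.324 to 0.727). Fresh embryo 3 was highest for 9 of the 25 genes, against 28.6% of all genes.

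**Figure D4:**
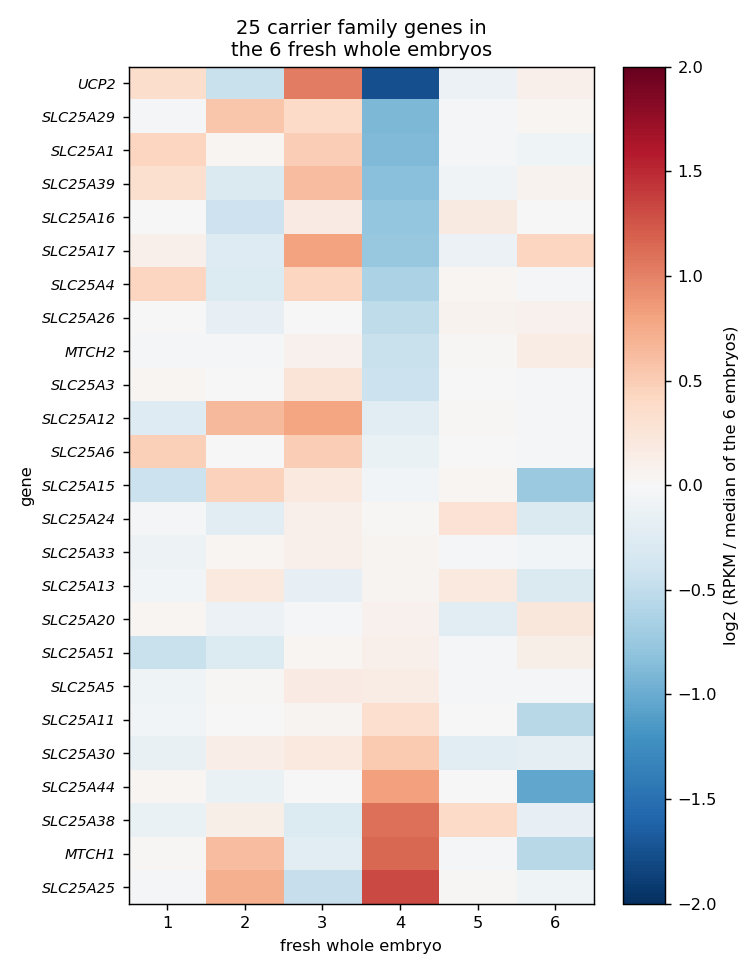
Levels of 25 carrier genes in the 6 fresh whole embryos, as log2 of RPKM over the median of the 6, with genes sorted by embryo 4. Embryo 4 is lowest for UCP2 (0.610 RPKM) and highest for MTCH1 (2.59 RPKM) and SLC25A25 (1.11 RPKM).

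Genes around the carriers were read from lists. They cover the machinery of mitochondrial protein import (with the outer membrane sorting complex), other mitochondrial transporters, and enzymes that use what the carriers move. In TE, 14 of 18 tested genes of the import machinery were higher after vitrification and 2 lower, 11 of 18 other transporters were higher and 4 lower, and 25 of 35 enzymes were higher and 2 lower, beside 69.0% and 6.66% of all genes tested. With median-ratio scaling these counts were 3 and 7, 7 and 6, and 16 and 10, beside 35.2% and 27.4% of all genes. MTX1, a subunit of the outer membrane sorting complex, stood at 3.42 to 4.27 RPKM in fresh TE and 19.5 to 27.0 in vitrified TE (log2 2.32 ± 0.16, adjusted p = 3.27e-10), and SAMM50, the core of that complex, at 0.317 to 0.422 and 1.53 to 1.89 (log2 0.98 ± 0.07). VDAC1, the main channel of the outer membrane, was higher (log2 1.68 ± 0.11) and SFXN4, a relative of the serine transporters, lower (log2 -0.81 ± 0.07). Among enzymes, SHMT2, which makes one-carbon units from serine in the matrix, stood at 1.2 to 1.80 RPKM in fresh TE and 15.3 to 21.3 in vitrified TE (log2 2.91 ± 0.12). CS, the citrate synthase that makes the substrate of SLC25A1, stood at 1.55 to 2.31 and 10.3 to 13.2 RPKM (log2 2.06 ± 0.09, adjusted p = 8.18e-13). In whole embryos 3 import genes were higher and 4 lower, 3 other transporters were higher and 0 lower, and 13 of 35 enzymes were higher and 0 lower, beside 26.9% and 3.94% of all genes.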

How the data were processed

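RNA-seq values of 20 libraries were deposited as 1 table in RPKM with an offset of 0.01 added. The authors worked on the UMD3.1 assembly and used Partek, STAR 2.5.3a and FastQC, per the submitters' processing notes. No source used here gives the counting rule. The unit was read from the deposited RPKM values: after removing 0.01 and multiplying by genomic span, 94.4 to 95.8% of values under 1000 reads lay within 0.1 of a whole multiple of 1 step per library, taken as 1 read. Totals were 6.01 to 14.53 M reads (M, 1000000) per library, and intervals cover counting error only.

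Main test: limma 3.58.1 (R 4.3.3, trend and robust, statmod 1.5.0) on log2(RPKM + 1), the offset removed, with 4 group means, for the 10599 genes with at least 10 reads in at least 2 libraries (4943 were not tested), with Benjamini-Hochberg adjustment at 0.05. The log2(RPKM + 1) scale understates changes of low genes. The fit was tested on simulated data with as many genes raised as lowered and independent libraries. That check does not cover near-identical libraries or a shift of most genes in the same direction, both seen here. Ratios of paralogs used log2 of reads with 0.5 added and exact two-sided permutation of group means, for pairs averaging at least 10 reads a gene. Levels were given per library for the gene with the most reads of each role, up to 4 genes with the highest and lowest change among those called at 1 RPKM or more in each contrast, and both genes of a changed ratio. From each pathway list the 2 genes with the smallest p were named. Other genes were named after their values were seen. Alternatives were 3 scalings, a pseudocount of 0.1, no filter, only the groups compared, the replicate block, averaged near-identical libraries and each library left out. The carrier genes, roles and lists were chosen with earlier results of these data known. No sequences are shown because no sequence table of this assembly was used here. A few items counted in the totals are not reported here by name.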

Additional observations from a re-analysis of the deposited data

Results flagged for a closer look

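Of 105 groups of 5 to 7 values (35 tested carrier genes in fresh embryos, fresh TE and vitrified TE), 7 held a library far from the rest by Dixon's ratio. Chance gives about 1 in 20. MTCH2 was low in fresh embryo 4 at 6.2 RPKM (others 8.24 to 9.32) and SLC25A38 was high there at 0.976 (0.378 to 0.597). SLC25A25 was low in fresh TE 5 at 0.202 RPKM (0.344 to 0.369). In vitrified TE 1, SLC25A26 was low at 0.107 RPKM (0.124 to 0.136) and SLC25A40 was high at 0.106 (0.0174 to 0.0422). SLC25A37 had its only fresh TE read in library 1 (0.00358 RPKM), and SLC25A43 stood at 0.0171 RPKM in fresh TE 4 (0 to 0.00403), which is 5 reads.

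The vitrification change in whole embryos minus that in TE passed an adjusted p of 0.05 in limma for 12 carrier genes. It was negative on the log2 scale for UCP2 (-1.97), SLC25A1 (-1.60), SLC25A6 (-1.05), MTCH2 (-0.99), SLC25A3 (-0.80), SLC25A22 (-0.75), SLC25A29 (-0.56), SLC25A24 (-0.29), SLC25A15 (-0.20), SLC25A16 (-0.16) and SLC25A13 (-0.05). For SLC25A38 it was positive (0.48). Both the fresh TE libraries, with their lower share of reads on listed genes, and the 2 unlike vitrified embryos enter each of these values.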

How the results depend on the processing

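Counts of carrier genes called, higher then lower, are given where they moved by over 1.5 times. The shares of all genes under the 3 scalings are given with each contrast above. Vitrified against fresh TE gave 26 and 2. Listed-gene scaling gave 5 lower, median-ratio scaling 14 and 12, quantile normalization 11 and 12, and the replicate block 24 and 0 (SLC25A14 adjusted p = 0.055 and SLC25A38 adjusted p = 0.0511). Of all genes the replicate block called 67.5% higher and 6.22% lower. Whole embryos (13 higher) gave 3, 4, 7 and 8 with median-ratio scaling, quantile normalization, only the groups compared and the replicate block. The matching shares of all genes were 10.6%, 8.68%, 18.1% and 21.9%. Fresh embryo against TE (25 and 4) gave 16 and 8, 11 and 9, and 7 and 12 under the 3 scalings. Vitrified embryo against TE (5 and 1) gave 1, 0 and 0 higher under the scalings, 2 and 0 with the pseudocount of 0.1, 0 higher with only the groups compared or the replicate block, 2 with near-identical libraries averaged, and 0 lower with quantile normalization. All genes went to 10.1% and 2.64% with the pseudocount. They went to 6.65%, 6.38% and 12.5% higher with only the groups compared, the replicate block and the averaged libraries. The contrast of changes (1 and 11) gave 4 and 4, 6 and 4, and 9 and 5. Paralog ratios (5 passing) gave 0 with group medians and 0 with near-identical libraries averaged. Leaving out 1 library gave 23 to 27 and 1 to 2 in TE (all genes 66.2 to 68.8% and 6.11 to 6.64%). Fresh embryo against TE gave 25 to 26 and 2 to 4 (56.4 to 59.6% and 5.32 to 6.61%). With both vitrified embryos kept, whole embryos gave 11 to 13 higher (24 to 29.3%). Vitrified embryo against TE then gave 2 to 6 and 1 (11.7 to 17.2% and 2.84 to 4.76%). The contrast of changes then gave 1 to 2 and 9 to 12 (3.53 to 4.4% and 25.4 to 30.4%). Paralog ratios gave 4 to 6. The main fit did not use replicate numbers to pair samples. Among same-number pairs, 7 of 22 correlated above 0.1 (r from -0.19 to 0.38), and 4 of 20 libraries correlated best with their own number. These values do not settle whether some pairs share an origin.

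Log2 values that reversed, vitrified against fresh TE. Listed-gene scaling: SLC25A20 -0.096, SLC25A30 -0.10, SLC25A4 -0.14, SLC25A5 -0.033, SLC25A51 -0.054. Median-ratio scaling: SLC25A13 -0.015, SLC25A20 -0.20, SLC25A3 -0.095, SLC25A30 -0.27, SLC25A4 -0.57, SLC25A5 -0.51, SLC25A51 -0.16. Quantile normalization: SLC25A12 -0.0042, SLC25A13 -0.063, SLC25A15 -0.029, SLC25A20 -0.29, SLC25A24 -0.019, SLC25A30 -0.36, SLC25A36 -0.018, SLC25A4 -0.57, SLC25A5 -0.13, SLC25A51 -0.25. Fresh embryo against TE. Listed-gene scaling: SLC25A11 -0.35, SLC25A26 -0.034, SLC25A4 -0.038. Median-ratio scaling: SLC25A11 -0.63, SLC25A13 -0.0087, SLC25A26 -0.068, SLC25A30 -0.040, SLC25A4 -0.33, SLC25A5 -0.077, SLC25A51 -0.084. Quantile normalization: SLC25A11 -0.67, SLC25A12 -0.017, SLC25A13 -0.045, SLC25A26 -0.12, SLC25A30 -0.087, SLC25A4 -0.41, SLC25A5 -0.088, SLC25A51 -0.13, SLC25A6 -0.088. Contrast of changes. Quantile normalization: SLC25A13 0.030, SLC25A3 0.10, SLC25A4 0.67. The cause was not tested. Low depth limits the 8 untested genes, and 2 vitrified embryos limit both contrasts with them.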
